A study of Mus musculus with 4 samples.

Results

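The pairs described here are contacts between 2 different RNAs in which neither partner is a hub, an RNA that meets a great many others. They were taken from a table of RNA pairs by splitting each pair's name into its partners and dropping every pair within 1 RNA and every pair holding 1 of 17 names: Neat1, Malat1, Gm42418, Gm26917, Slc9a9, Gm26870, Gm17535, Gm10800, Gm10801, Gm10715, Gm10717, Gm10718, Gm10719, Gm10720, Gm10722, Gm21738 and Gm11168. Of 56636 pairs in the table, 24414 remained. Another 27386 between-RNA pairs held a hub and 4836 pairs lay within 1 RNA. The hub names were chosen by measured contacts in these same libraries, so the share of contacts that hub-free pairs hold is a description and was not tested as a finding. Among the dropped names, Gm42418 had 8422 distinct partners and Gm10715 had 3, and the most connected RNA that the rule kept, Shroom3, had 3029.

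Mouse spermatogonial stem cells were studied by RIC-seq (RNA in situ conformation sequencing). There were 2 control libraries, whose genotype label reads WT, and 2 libraries labelled treat, whose genotype label reads Differentiation; they are called control and differentiation here. All 4 were fixed in 1% formaldehyde for 10 min. The labels used here do not say what induced differentiation or for how long, the strain or age, or whether replicates came from separate cultures. The p-values therefore rest on the spread between libraries that may be technical replicates.

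In RIC-seq, formaldehyde holds RNAs to the proteins around them, the RNA is cut in place, and ends that lie close together are ligated and read as 1 chimeric fragment. A contact between different RNAs can thus come from base pairing, from a shared protein complex or from a shared place in the nucleus. A transcript that runs over adjoining annotated genes, or a read that matches both a gene and its near-identical copy, can also be counted as a pair of different RNAs. Spermatogonial stem cells renew themselves and give rise to the cells that enter meiosis and later build the sperm flagellum, so genes of these later steps have few transcripts in the stem cell and more as cells advance.

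Some hub-free pairs joined related genes, and 3 of them show how alike the promoters of such partners can be. These 3 were picked and lie well above the median identity given below. Promoter windows lie mostly outside the transcripts, so they do not show whether a read matches both genes. The 300-base promoter windows below are RefSeq sequences of build GRCm38.p6, from 250 bases before to 50 bases after each gene's start. Capitals mark bases that differ or face a gap when the windows of a pair are aligned end to end. The axonemal dynein genes Dnah7c (chr1:46425268-46425567, plus strand) and Dnah7a (chr1:53706735-53707034, minus strand) agreed at 84% of 300 bases.
Dnah7c: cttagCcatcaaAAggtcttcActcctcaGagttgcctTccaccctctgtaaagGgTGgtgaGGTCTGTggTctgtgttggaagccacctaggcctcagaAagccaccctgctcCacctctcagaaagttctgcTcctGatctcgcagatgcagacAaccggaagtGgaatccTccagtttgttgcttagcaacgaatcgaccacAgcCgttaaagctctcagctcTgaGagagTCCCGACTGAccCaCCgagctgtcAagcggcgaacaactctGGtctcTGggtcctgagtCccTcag
Dnah7a: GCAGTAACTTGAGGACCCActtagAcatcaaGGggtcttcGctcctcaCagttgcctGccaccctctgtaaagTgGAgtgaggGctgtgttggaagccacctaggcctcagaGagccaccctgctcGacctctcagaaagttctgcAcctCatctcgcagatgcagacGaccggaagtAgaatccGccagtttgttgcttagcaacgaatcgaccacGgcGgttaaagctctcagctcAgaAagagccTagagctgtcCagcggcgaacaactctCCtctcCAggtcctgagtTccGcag
The class I histocompatibility genes H2-D1 (chr17:35262844-35263143, plus strand) and H2-Q4 (chr17:35379367-35379666, plus strand) agreed at 78.7%.
H2-D1: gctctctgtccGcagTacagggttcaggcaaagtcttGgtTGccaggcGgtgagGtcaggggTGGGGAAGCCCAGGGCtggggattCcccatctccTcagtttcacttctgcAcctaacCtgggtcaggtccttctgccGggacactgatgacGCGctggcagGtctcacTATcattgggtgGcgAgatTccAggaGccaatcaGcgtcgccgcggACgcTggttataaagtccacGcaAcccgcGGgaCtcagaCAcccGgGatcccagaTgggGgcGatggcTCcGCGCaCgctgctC
H2-Q4: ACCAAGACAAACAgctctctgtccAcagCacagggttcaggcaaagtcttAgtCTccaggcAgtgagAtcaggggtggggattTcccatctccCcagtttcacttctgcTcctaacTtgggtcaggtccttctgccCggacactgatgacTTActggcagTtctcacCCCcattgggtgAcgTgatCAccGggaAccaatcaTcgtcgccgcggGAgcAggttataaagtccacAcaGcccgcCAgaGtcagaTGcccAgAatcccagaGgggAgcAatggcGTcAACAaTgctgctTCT
The heat shock genes Hspa1b (chr17:34959189-34959488, minus strand) and Hspa1a (chr17:34972107-34972406, minus strand) agreed at 98.7% and differed at 4 bases.
Hspa1b: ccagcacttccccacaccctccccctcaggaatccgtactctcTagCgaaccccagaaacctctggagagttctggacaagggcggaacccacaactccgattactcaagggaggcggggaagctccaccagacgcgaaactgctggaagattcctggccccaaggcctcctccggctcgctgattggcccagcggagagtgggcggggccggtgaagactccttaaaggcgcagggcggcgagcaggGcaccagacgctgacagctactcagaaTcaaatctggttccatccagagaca
Hspa1a: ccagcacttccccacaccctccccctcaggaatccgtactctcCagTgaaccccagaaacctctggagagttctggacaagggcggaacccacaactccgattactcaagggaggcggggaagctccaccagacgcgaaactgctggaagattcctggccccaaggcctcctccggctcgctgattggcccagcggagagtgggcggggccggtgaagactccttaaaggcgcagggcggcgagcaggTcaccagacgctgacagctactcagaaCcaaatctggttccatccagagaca
Over all 107 member pairs with a shared symbol root and both windows at hand, the median identity was 55.7%, and 31 reached 75%. Over 3384 member pairs with no shared root on different chromosomes the median was 53%, and the highest value was 62.3%. A high identity of the windows thus occurred here in the pairs of like-named genes, and it was not used in choosing the members.

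Every listed pair had at least 1 count in each of the 4 libraries, so contacts seen in some libraries only were not analysed here. Table totals were 1209031 and 1400011 counts in the controls and 793129 and 1155923 with differentiation, and hub-free pairs held 175437, 202235, 131992 and 200072 of these in the same order. Their share of all counts was 14.5% and 14.4% in the controls and 16.6% and 17.3% with differentiation. The groups did not overlap. With 2 libraries a group, the exact permutation p (two-sided) is 0.333 at the least, which is its value here. Summed over a list of undifferentiated spermatogonia markers, of which 9 of 12 were in the table and Id4, Lin28a and Nanos2 were not, contact totals were 334 and 381 CPM (scaled counts as edgeR gives them) in the controls and 235 and 269 with differentiation. Sertoli cell markers, 10 of 12 in the table with Amh and Trf absent, summed to 2185 and 2308 CPM in the controls and 1412 and 1384 with differentiation. Fibroblast and feeder markers (11 of 14, without Postn, Lum and Dcn) summed to 2398 and 2211 CPM in the controls and 1842 and 2121 with differentiation, and the 6 of 10 Leydig and peritubular markers in the table to 377 and 385 against 441 and 432. The first 3 marker lists were lower and the fourth higher in both differentiation libraries than in the controls. Blood and immune markers (3 of 8) lay between 7.66 and 19.4 CPM in 3 libraries and at 91 CPM in differentiation 1. The part of other cell types in the changes below was not tested. In bulk libraries like these, fewer cells of a type and less RNA per cell cannot be told apart.

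The contacts were spread over 7581 RNAs, with a median of 2 partners, and 3546 RNAs had a single hub-free partner. The median pair held 13 counts over the 4 libraries. Only 804 pairs (3.29%) held more than 100 counts and 52 more than 1000, whereas the 100 strongest held 21% of all hub-free counts and the 15 strongest 7.94%. Among the 100 strongest, 36 had a pseudogene as a partner, 5 joined genes of a shared symbol root, 9 joined overlapping genes and 7 joined neighbours. These strengths are not corrected for RNA length or level.

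**Figure D1:**
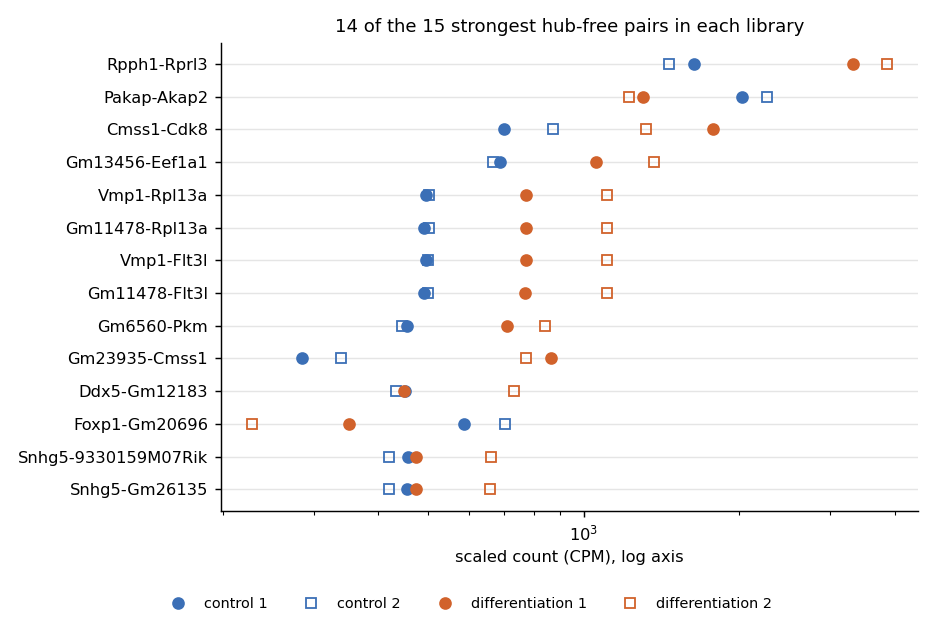
Scaled counts (CPM, log axis) of 14 of the 15 pairs with the largest summed count, 1 point per library; circles are replicate 1 and squares replicate 2, blue control and orange differentiation. Rpph1-Rprl3 lies highest, and Pakap-Akap2 and Foxp1-Gm20696 are the 2 pairs whose differentiation points lie below both controls.

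The strongest pair joined Rpph1, the RNA subunit of the tRNA-processing enzyme RNase P on chromosome 14, to Rprl3, an RNase P RNA-like gene on chromosome 8, with 10331 counts in all. It lay at 1632 and 1461 CPM in the controls and at 3313 and 3857 CPM with differentiation. Both differentiation libraries were above both controls, and the rise passed the test (log2 change 1.21, SE 0.16, adjusted p = 0.000272; here and below the log2 of differentiation over control with its standard error, SE, from edgeR's quasi-likelihood fit, and Benjamini-Hochberg adjusted p over all tested pairs). The reference table classes both partners as RNase P RNA, so reads of the one may have been assigned to the other.

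The second strongest pair, Pakap-Akap2, is an annotation of 1 locus. Both names, and Palm2 as well, matched the same gene of the reference table at chr4:57434475-57896984, which codes for anchoring proteins of protein kinase A and for a paralemmin. Pakap-Akap2 lay at 2019 and 2258 CPM in the controls and 1299 and 1225 CPM with differentiation, a fall (log2 change -0.76, SE 0.17, adjusted p = 0.0115). The within-RNA pairs of Pakap and Akap2 fell by 0.78 and 0.77 on the log2 scale, about as far as the pair between them. Palm2-Pakap fell as well (log2 change -0.87, SE 0.21, adjusted p = 0.0196). Palm2-Akap2 was at 147 and 203 CPM and 125 and 106 CPM, with a log2 change of -0.60 that did not pass (adjusted p = 0.186). Without control 1 or without control 2, neither Pakap-Akap2 nor Palm2-Pakap passed, with adjusted p up to 0.281 and 0.295. In all, 5 member pairs had 2 names that matched 1 reference gene.

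Next in strength came Cmss1-Cdk8, between a gene named for a ribosomal small subunit homolog on chromosome 16 and the Mediator kinase Cdk8 on chromosome 5. It rose from 701 and 871 to 1778 and 1320 CPM (log2 change 0.98, SE 0.19, adjusted p = 0.00643), with no overlap between the groups. Gm23935-Cmss1 rose further, from 285 and 339 to 864 and 773 CPM (log2 change 1.39, SE 0.20, adjusted p = 0.000477). All of Cmss1, Cdk8 and Gm23935 were among 7 RNAs that kept more than 500 hub-free partners, so these pairs joined the RNAs most connected to everything else. Their counts were 19.3 and 5.21 times what the partners' totals alone would give, against a median of 7.53 over all hub-free pairs. Without control 1, Cmss1-Cdk8 no longer passed, with adjusted p up to 0.145 over its alternatives.

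Among the next strong pairs were a few that joined a protein-coding gene to a pseudogene. Gm13456-Eef1a1, a pseudogene with the translation elongation factor, rose from 687 and 666 to 1053 and 1364 CPM (log2 change 0.84, SE 0.19, adjusted p = 0.0134). Gm6560-Pkm, a pseudogene with the glycolytic enzyme pyruvate kinase, rose from 454 and 444 to 709 and 840 CPM (log2 change 0.79, SE 0.19, adjusted p = 0.0216). In both pairs each differentiation library was above each control. Ddx5-Gm12183, with a DEAD-box RNA helicase and 58026 kb between the loci on chromosome 11, was at 451 and 433 and 448 and 732 CPM and did not pass (adjusted p = 0.306). The calls of Gm13456-Eef1a1 and Gm6560-Pkm were lost without control 1 and without control 2, with adjusted p up to 0.204 and 0.262.

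Some strong pairs were the same contact counted under several names. Vmp1-Rpl13a (an autophagy protein and a protein of the large ribosomal subunit), Gm11478-Rpl13a, Vmp1-Flt3l and Gm11478-Flt3l held 586, 583, 586 and 583 counts in control 1 and 1156, 1156, 1155 and 1155 in differentiation 2. Vmp1 and Gm11478 lie on chromosome 11, and Rpl13a and Flt3l, the ligand of a blood cell receptor, lie 2.437 kb apart on chromosome 7. All 4 rose by 0.92 on the log2 scale (adjusted p = 0.0125), and they amount to 1 observation. All 4 lost the call with no filter, in the fit on hub-free pairs alone, without control 1 and without control 2 (adjusted p up to 0.131 to 0.137). Snhg5-9330159M07Rik and Snhg5-Gm26135, with a snoRNA host RNA, likewise shared counts, of 542 and 539 in control 1, and neither changed past the threshold (adjusted p = 0.326 and 0.325). Of 1835 pairs holding 50 counts or more, 275 (in 116 sets) had a pair of the same partner whose counts agreed within 5% in every library. Among 235 such links, the exchanged RNAs overlapped in 135, lay apart in 27 and could not be placed in 73.

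Position separated the pairs by how far they exceeded expectation. Both partners could be placed on GRCm38.p6 in 19364 pairs, of which 3830 (19.8%) lay on 1 chromosome. These were 148 pairs of overlapping genes, 678 neighbours with a gap of up to 100 kb and 3004 pairs farther apart. Another 15534 pairs joined different chromosomes and 5050 had a partner with no place in the reference table. For 12153 placed pairs that held none of the 7 RNAs with more than 500 partners, 27.2% lay on 1 chromosome, with a median gap of 899.3 kb, and 1672 lay within 1000 kb. For each pair the summed count was divided by the count expected from both partners' totals over all between-RNA pairs, those with a hub included. Without those 7 RNAs the median of this ratio was 112 for overlapping genes, 2117 for neighbours, 97.5 for pairs farther apart on a chromosome and 14.3 across chromosomes. Neighbours thus stood highest and pairs across chromosomes lowest of these 4 classes. Every listed pair holds at least 1 count in each library, so a pair of very low expectation appears only with a count above it. The ratio also rises as the partners' totals fall, and the classes were not compared at equal totals. How far either sets the medians or their order was not tested.

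**Figure D2:**
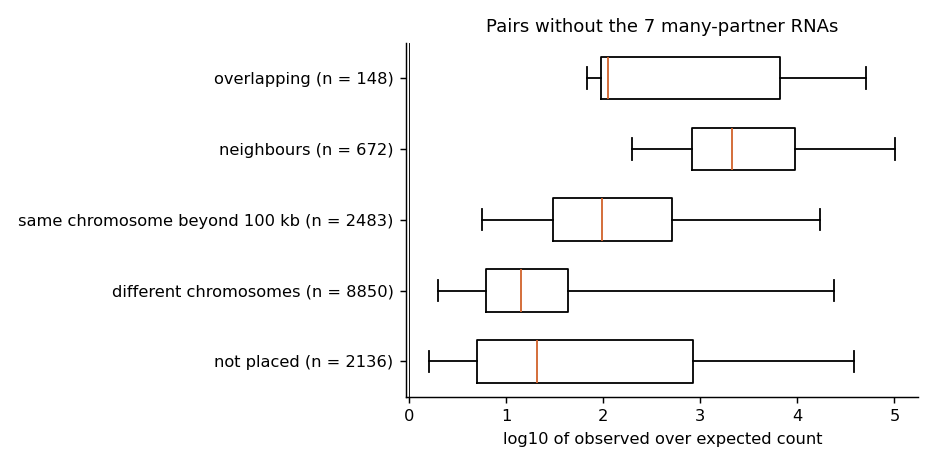
Log10 of observed over expected summed count by position of the partners, for member pairs without the 7 RNAs of more than 500 partners; boxes span the quartiles with the median in orange, whiskers the 5th to 95th percentile. The median ratio is 2117 for neighbours and 14.3 for pairs on different chromosomes.

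Among neighbours whose strands were both known, 388 pairs ran on the same strand and 59 on opposite strands. Of 222 tested same-strand pairs, 12 rose (5.41%) and 5 fell (2.25%), against 2.85% and 2.4% of all tested pairs. Of 23 tested opposite-strand pairs none was called by edgeR or by DESeq2, 3 were higher and 4 lower at an unadjusted p under 0.05, and 1 rose without differentiation 1 and 1 without differentiation 2. The difference between the strands was not tested. Emc1-Ubr4, a membrane insertion subunit and a ubiquitin ligase 1.923 kb apart on 1 strand of chromosome 4, rose from 221 and 235 to 409 and 466 CPM (log2 change 0.94, SE 0.20, adjusted p = 0.0119). Rpl13a-Flt3l rose from 396 and 330 to 668 and 592 CPM (log2 change 0.79, SE 0.20, adjusted p = 0.0258). In both pairs all differentiation values lay above the controls. Tuft1-Gm15264, a tuftelin gene and a pseudogene 61.15 kb away, was at 292 and 326 and 225 and 206 CPM and did not pass (adjusted p = 0.167). Both risen calls were lost without control 1 and without control 2, with adjusted p up to 0.141 for Emc1-Ubr4 and 0.371 for Rpl13a-Flt3l.

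Overlapping genes gave some of the clearest single cases. Gm21992-Rbm4, with an RNA-binding splicing regulator, was at 330 and 363 and 354 and 606 CPM and did not pass (adjusted p = 0.265). Mir8114-Glul joins a microRNA gene to the glutamine synthetase gene that overlaps it on the same strand of chromosome 1. Its mature microRNA in RefSeq, with the seed (bases 2 to 8) in capitals, shows how short the named RNA is against the contact counted for its locus.
mmu-miR-8114: uCACCCAUcuccucuccgccu
Mir8114-Glul rose from 92.7 and 151 to 267 and 296 CPM (log2 change 1.20, SE 0.26, adjusted p = 0.00996), with both differentiation libraries above both controls. The within-RNA pair of Glul changed by the same 1.20 on the log2 scale, and reads of the host cannot be separated from those of the microRNA locus here. The call was lost without control 1 (adjusted p up to 0.164). Hoxd3-Hoxd4, overlapping homeobox genes of body patterning, fell from 225 and 207 to 86.7 and 83.3 CPM (log2 change -1.35, SE 0.24, adjusted p = 0.00324). Its call held under every alternative run for single pairs. Here and below, those alternatives do not include redrawing the low-count filter on 3 libraries, whose outcome is given with the processing.

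Of the 24414 hub-free pairs, 8247 passed the low-count filter. Of these, 248 rose (3.01%) and 59 fell (0.715%), where 2.85% of all 31688 tested pairs rose and 2.4% fell. The share that rose was thus near that of the whole table, and the share that fell was below it. Among 19002 tested pairs with a hub, 0.558% rose and 2.91% fell. The median log2 change was 0.19 over tested hub-free pairs and 0.02 over all tested pairs. Scaling by column totals moved the median of all pairs to -0.12 and gave 166 rises and 87 falls among hub-free pairs, so that 65.6% of calls were rises in place of 80.8%. With the model fitted on hub-free pairs alone, 67 rose and 36 fell, or 65% rises. Leaving out control 1 gave 128 rises and 44 falls, leaving out control 2 gave 68 and 24, leaving out differentiation 1 gave 417 and 94, and leaving out differentiation 2 gave 251 and 35. The number of calls thus moved with single libraries, and was lowest without control 2. In 247 of the 248 risen pairs and in all 59 that fell, the scaled counts of the groups did not overlap. With 2 libraries a group, a call nearly requires such separation, so it adds no support to the calls. The share without overlap over all tested pairs was not counted.

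**Figure D3:**
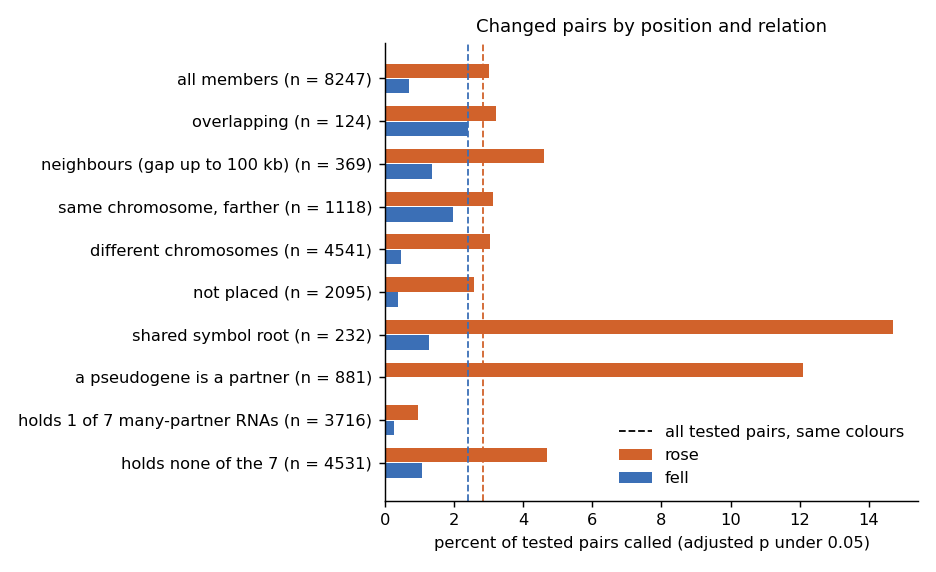
Percent of tested member pairs that rose (orange) or fell (blue) by position and relation of the partners, with the number tested; dashed lines mark 2.85% and 2.4%, the shares over all 31688 tested pairs. Pairs with a shared symbol root and pairs with a pseudogene show 14.7% and 12.1% rises.

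By position, 4 overlapping pairs rose and 3 fell of 124 tested, 17 neighbours rose and 5 fell of 369, 35 farther pairs on 1 chromosome rose and 22 fell of 1118, 138 pairs across chromosomes rose and 21 fell of 4541, and 54 unplaced pairs rose and 8 fell of 2095. In that order the rises were 3.23%, 4.61%, 3.13%, 3.04% and 2.58% of those tested, against 2.85% of all tested pairs. The falls were 2.42%, 1.36%, 1.97%, 0.462% and 0.382%, against 2.4%. The median log2 change was -0.25 for distant pairs on 1 chromosome and 0.20 for pairs on different chromosomes. Without control 2 the rises came to 2, 5, 13, 28 and 20 in the same order of classes and the falls to 1, 2, 6, 9 and 6. The other single libraries moved some of these counts by more than 1.5 times as well, as given with the processing alternatives. Pairs on 1 chromosome held 27.6% and 29.8% of the placed hub-free counts in the controls and 25.9% and 22.3% with differentiation, with no overlap (exact permutation p = 0.333, the smallest possible).

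Pairs with a pseudogene partner rose in 107 of 881 tested cases (12.1%, against 2.85% of all tested pairs). None of the 881 fell by edgeR or by DESeq2, and 350 were higher and 3 lower at an unadjusted p under 0.05. Their median log2 change was 0.90. They held 17.2% and 15.9% of hub-free counts in the controls and 20.8% and 25.3% with differentiation. Leaving out control 1, control 2, differentiation 1 or differentiation 2 gave 52, 20, 188 and 72 rises, so that leaving out either control or differentiation 1 moved the number by more than 1.5 times. Where the partner gene had a tested within-RNA pair, in 195 pairs without the 7 most connected RNAs, the median pair change was 0.69 and the median within-RNA change of the partner 0.48. Over all tested within-RNA pairs of the table the median was 0.44.

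Some of the risen pseudogene pairs held a ribosomal protein gene. Rplp0-Gm8730, with a protein of the ribosomal stalk, rose from 254 and 204 to 505 and 658 CPM (log2 change 1.35, SE 0.22, adjusted p = 0.00127). Gm10073-Rplp1, with another stalk protein, rose from 154 and 134 to 327 and 433 CPM (log2 change 1.40, SE 0.23, adjusted p = 0.00143). Gm5805-Rps14, with a small-subunit protein, rose from 207 and 176 to 426 and 457 CPM (log2 change 1.20, SE 0.21, adjusted p = 0.00258). In all 3 the differentiation libraries lay above both controls, and Gm5805-Rps14 lost its call without control 2 (adjusted p up to 0.085). With or without a pseudogene, 298 pairs with a ribosomal protein gene were tested. Of these, 33 rose (11.1%) and 2 fell (0.671%), against 2.85% and 2.4% of all tested pairs. Without control 1 there were 18 rises, without control 2 only 3, and without differentiation 1 there were 52.

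Pabpc1, Actb and Cd63, chosen after their values were seen, rose with a pseudogene and with a gene in pairs of near-equal counts. Pabpc1, the poly(A)-binding protein, rose with Gm16580 from 193 and 187 to 476 and 603 CPM (log2 change 1.51, SE 0.21, adjusted p = 0.000434) and with the splicing gene Luc7l, on the same chromosome as Gm16580, from 196 and 193 to 488 and 613 CPM (log2 change 1.504, SE 0.21, adjusted p = 0.00043). The 2 Pabpc1 pairs had nearly equal counts and are 1 observation. The same held for Actb, cytoplasmic actin, with Gm15725 (log2 change 0.80) and Lrrc58 (0.79), and for the membrane protein Cd63 with its pseudogene Cd63-ps and with the peroxisomal enzyme gene Hsd17b4 (both 0.84). These 4 pairs passed at adjusted p between 0.0306 and 0.0347 and lost their calls without control 1, without control 2 and without differentiation 2. The Pabpc1 pairs kept theirs under all alternatives run (adjusted p up to 0.00716).

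Genes of a shared symbol root formed 320 pairs. Of 232 tested, 34 rose (14.7%) and 3 fell (1.29%), against 2.85% and 2.4% of all tested pairs. The median log2 change of the 232 was 0.68. Without control 2 there were 14 rises and 1 fall. The roots with most pairs were Pcdhga, clustered protocadherins whose transcripts share constant exons, with 28 pairs, all tested, and Rpl and Snord with 19 pairs each. None of the 28 Pcdhga pairs was called by edgeR or DESeq2 or had an unadjusted p under 0.05. In class I histocompatibility genes, which present peptides to T cells, H2-D1-H2-Q4 rose from 216 and 232 to 567 and 594 CPM (log2 change 1.37, SE 0.20, adjusted p = 0.0006). H2-Q4-H2-Q10 rose from 73.3 and 90.4 to 182 and 275 CPM (log2 change 1.48, SE 0.26, adjusted p = 0.00305). H2-D1-H2-Q10 rose from 48 and 54.5 to 122 and 179 CPM (log2 change 1.56, SE 0.28, adjusted p = 0.00338). The groups did not overlap in any of these, and all kept their calls under all alternatives run. H2-D1-H2-Q4 and H2-D1-H2-Q10 share no symbol root as counted here, so they are not among the 320 pairs. H2-D1-Gm10499, on the same chromosome, rested on 1 count in each control against 11 and 10 with differentiation, a ratio of 15.5 with an exact 95% interval of 3.79 to 136, and lost its call without control 2 or differentiation 1 (adjusted p up to 0.078).

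Histone pairs stood among the large rises of like genes, some without a shared symbol root as counted here (Hist1h2bl-Hist1h2ba). Of 37 tested pairs with a histone gene, 13 rose (35.1%, against 2.85% of all tested pairs). None fell by edgeR, where 2.4% of all tested pairs fell, and none by DESeq2. None was lower at an unadjusted p under 0.05. Of 21 between histone genes 10 rose. Hist1h2bl-Hist1h2ba, joining a core H2B gene to the testis H2B gene 2218 kb away, rose from 16 and 17.2 to 149 and 166 CPM (log2 change 3.24, SE 0.31, adjusted p = 1.27e-05). Hist1h4c-Hist1h4a, between H4 genes 62.34 kb apart, rose from 117 and 120 to 418 and 432 CPM (log2 change 1.84, SE 0.22, adjusted p = 8.76e-05). Hist1h4d-Hist1h4b rose from 14.3 and 18.7 to 117 and 78.5 CPM (log2 change 2.54, SE 0.36, adjusted p = 0.000449). Each differentiation library exceeded both controls in all 3. Replication-dependent histone genes are near-identical in their coding parts, so which gene a read came from is uncertain. Without control 2 there were 6 risen pairs with a histone gene, and the 3 named pairs passed under every alternative run.

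Flagellum genes formed 55 hub-free pairs. Of 24 tested pairs with a flagellum gene 7 rose (29.2%, against 2.85% of all tested pairs), and 4 rose by DESeq2. None fell by edgeR, where 2.4% of all tested pairs fell, and none by DESeq2. None was lower at an unadjusted p under 0.05, and 18 of the 24 had a change above 0. Of 5 pairs between such genes 4 rose. Dnah7b-Dnah7c, between inner-arm dynein heavy chain genes 51.88 kb apart on chromosome 1, rose from 50.6 and 70.3 to 266 and 239 CPM (log2 change 2.06, SE 0.26, adjusted p = 0.000159). Dnah7b-Dnah7a, across 7023 kb, rose from 3.37 and 2.15 to 45.5 and 21.1 CPM (log2 change 3.52, SE 0.62, adjusted p = 0.00272). Dnah7c-Dnah7a, whose promoter windows are printed above, rose from 9.27 and 2.15 to 45.5 and 17.2 CPM (log2 change 2.44, SE 0.64, adjusted p = 0.0339). The within-RNA pairs of Dnah7b, Dnah7c and Dnah7a had log2 changes of 1.46, 3.89 and 4.26, so contacts inside each RNA were higher as well. Catsperg1-Catsperg2, auxiliary subunits of the sperm calcium channel 481.6 kb apart, rose from 23.6 and 39.5 to 198 and 174 CPM (log2 change 2.54, SE 0.30, adjusted p = 8.76e-05). In these pairs every differentiation library lay above both controls. Without control 2 there were 3 risen flagellum pairs, and Dnah7c-Dnah7a lost its call without control 2 or differentiation 1 (adjusted p up to 0.207).

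Other copies rose too. Tuba3a-Tuba3b, alpha tubulin genes 20330 kb apart on chromosome 6, rose from 41.3 and 38.7 to 99.5 and 130 CPM (log2 change 1.53, SE 0.29, adjusted p = 0.00523), though not without control 2 (adjusted p up to 0.0564). Gstp1-Gstp2, detoxifying glutathione transferases, rose from 46.4 and 40.2 to 107 and 93.9 CPM (log2 change 1.21, SE 0.29, adjusted p = 0.0216). Kifc5b-Kifc1, spindle kinesins, rose from 37.9 and 28 to 64 and 85.2 CPM (log2 change 1.19, SE 0.33, adjusted p = 0.0452). The last 2 lost their calls without control 1 and without control 2, with adjusted p up to 0.219 and 0.35.

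Not all close copies passed the test. Hspa1b-Hspa1a, stress-induced chaperones with windows 98.7% identical, was at 52.3 and 43.8 CPM in the controls and 34.1 and 76.6 CPM with differentiation. Differentiation 1 was below both controls and differentiation 2 above them, and the pair did not pass (adjusted p = 0.787). Mfap1b-Mfap1a, spliceosome-associated copies 18.66 kb apart with windows 87% identical, was at 75 and 120 and 172 and 146 CPM (adjusted p = 0.15). Skint6-Skint5, relatives of a gene that selects skin T cells, was at 110 and 33 and 432 and 74.7 CPM, and its control 1 lay above differentiation 2 (adjusted p = 0.0724).

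**Figure D4:**
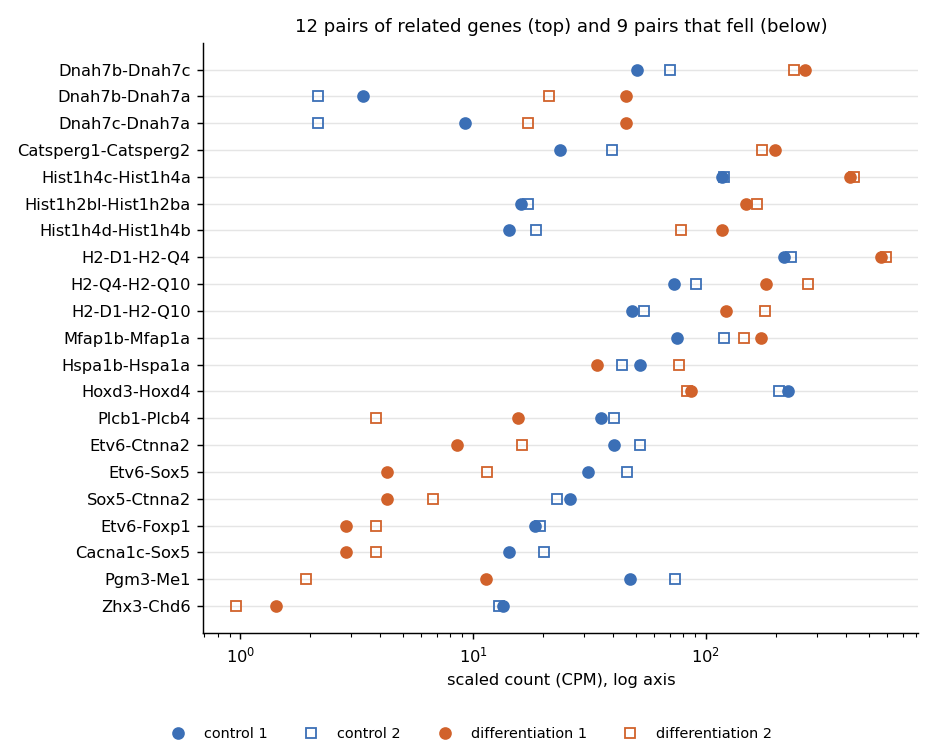
Scaled counts (CPM, log axis) per library of 12 pairs of related genes (top) and 9 pairs that fell (below); circles replicate 1, squares replicate 2, blue control, orange differentiation. In Dnah7b-Dnah7c all differentiation points (266 and 239) lie above the controls (50.6 and 70.3), in Hspa1b-Hspa1a the groups overlap, and in Zhx3-Chd6 both differentiation points lie below the controls.

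Meiosis genes entered only 13 hub-free pairs, of which 3 were tested and 2 rose, where 2.85% of all tested pairs rose. Sycp1-Sycp1-ps1, the synaptonemal complex filament gene and its pseudogene, rose from 11.8 and 8.61 to 64 and 112 CPM (log2 change 3.12, SE 0.41, adjusted p = 0.000225). Hormad1-Gm15529, the meiotic chromosome axis gene and a pseudogene, rose from 3.37 and 4.3 to 37 and 49.8 CPM (log2 change 3.46, SE 0.51, adjusted p = 0.00061). Neither pair's groups overlapped, and both calls held under all alternatives run.

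Further pairs among the 10 largest rises rested on few control counts. RP23-202K1.1-Poteg, with an ankyrin-repeat gene, went from 2 and 2 counts in the controls to 68 and 125 with differentiation (log2 change 6.03, SE 0.48, adjusted p = 1.44e-06). The within-RNA pairs of both partners had log2 changes of 2.94 and 5.81. Tex14-mt-Tm, a germ cell bridge gene with the mitochondrial methionine tRNA, went from 2 and 3 to 20 and 24 counts (log2 change 3.65, SE 0.63, adjusted p = 0.00241), and Gm2163-4930578G10Rik from 7 and 1 to 25 and 44 (log2 change 3.58, SE 0.62, adjusted p = 0.0023). All 3 were higher in both differentiation libraries than in either control, as the rule that named them required.

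With 3 or fewer counts in the controls, 3 more pairs are better given as ratios of scaled counts with an exact 95% interval for counting error. Gm23935-Gpx1, with an antioxidant peroxidase, had 1 and 1 counts in the controls and 12 and 13 with differentiation, a ratio of 18.5 (4.6 to 161). Gm7133-Gm7135, adjoining on chromosome 1, had 2 and 1 and 15 and 8, a ratio of 11.3 (3.42 to 58.9). Dcaf5-Gm23935, with a ubiquitin ligase adaptor, had 2 and 1 and 13 and 9, a ratio of 10.8 (3.25 to 56.5). These intervals all lay above 1, and they cover counting error only. The pairs were named as the largest called rises, so this adds no support to the calls. The intervals also make no allowance for the least count of 1 that every listed pair holds in each library. Gm23935-Gpx1 kept its call under all alternatives run, and Gm7133-Gm7135 and Dcaf5-Gm23935 lost theirs in the fit on hub-free pairs alone, without control 2 and without differentiation 1 (adjusted p up to 0.206 and 0.146).

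The 59 falls were fewer than the 248 rises. Brinp3-Capn1, a neural cell cycle inhibitor gene on chromosome 1 and the protease calpain 1 on chromosome 19, fell from 70 and 56.7 to 5.69 and 0.958 CPM (log2 change -4.38, SE 0.57, adjusted p = 0.000225). Pgm3-Me1, a sugar phosphate mutase and the malic enzyme 9.484 kb apart on 1 strand of chromosome 9, fell from 47.2 and 73.9 to 11.4 and 1.92 CPM (log2 change -3.33, SE 0.56, adjusted p = 0.00181). Ptprd-Nfib, a receptor phosphatase and a transcription factor 4078 kb apart, fell from 16 and 26.5 to 4.26 and 0.958 CPM (log2 change -3.13, SE 0.72, adjusted p = 0.0158). Every differentiation value lay below both controls in these pairs, as the rule that named them required. The first 2 kept their calls under all alternatives run. Ptprd-Nfib lost its call without control 2 or differentiation 2 (adjusted p up to 0.0853).

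Another 7 of the 10 largest falls had 3 or fewer counts with differentiation. Plce1-Ctnna2, a phospholipase and an alpha-catenin of neurons, had 21 and 20 counts in the controls and 1 and 1 with differentiation, a ratio of control to differentiation of 13.9 (3.61 to 118). For Crim1-Ctnna2 the ratio was 12.2 (3.14 to 104), for Fgfr2-Dock1, a growth factor receptor and a Rac activator, 10.2 (3.26 to 51.1), and for Acsl4-Ammecr1, with a fatty acid ligase, 9.71 (3.11 to 48.9). Pakap-Me1 had a ratio of 10.5 (2.67 to 90.5) and Samd4-Rmrp, with the RNA of RNase MRP, 9.48 (2.39 to 82.1). The seventh, Zhx3-Chd6, is given with the genes of the title. All of these intervals lay above 1, but the pairs were named as the largest called falls, so this adds no support to the calls. The intervals cover counting error only and make no allowance for the least count of 1 in each library. Plce1-Ctnna2 kept its call under all alternatives run. Samd4-Rmrp lost it under 5 alternatives, each left-out library among them, Pakap-Me1 and Crim1-Ctnna2 under 3, Acsl4-Ammecr1 under 2 and Fgfr2-Dock1 under 1 (adjusted p up to 0.175, 0.125, 0.44, 0.113 and 0.091). Of these, Crim1-Ctnna2 and Acsl4-Ammecr1 did not pass without control 2, Pakap-Me1 did not pass without control 1, and all 4 pairs other than Samd4-Rmrp did not pass without differentiation 2.

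A set of 5 RNAs from chromosome 6 was picked after their values were seen. Among Ctnna2, the ETS factor Etv6, the transcription factors Sox5 and Foxp1 and the calcium channel Cacna1c there were 9 hub-free pairs, all tested, and 6 fell (3 by DESeq2), where 2.4% of all tested pairs fell. The set was chosen for its falls, so nothing is read from this count. Etv6-Ctnna2, 56056 kb apart, fell from 40.5 and 52.4 to 8.53 and 16.3 CPM (log2 change -1.84, SE 0.43, adjusted p = 0.0187). Etv6-Sox5, 9558 kb apart, fell from 31.2 and 45.9 to 4.26 and 11.5 CPM (log2 change -2.19, SE 0.50, adjusted p = 0.0161). Sox5-Ctnna2 fell from 26.1 and 23 to 4.26 and 6.7 CPM (log2 change -2.09, SE 0.55, adjusted p = 0.032). In each the differentiation libraries lay below both controls. Etv6-Foxp1 and Cacna1c-Sox5 had log2 changes of -2.44 and -2.30 (adjusted p = 0.0294 and 0.0462). The within-RNA pairs of Ctnna2, Sox5, Foxp1, Cacna1c and Etv6 had log2 changes of -2.39, -1.61, -1.19, -1.16 and -0.88. Etv6-Ctnna2 and Etv6-Sox5 lost their calls without control 2 (adjusted p up to 0.144 and 0.123), Sox5-Ctnna2 and Etv6-Foxp1 under 5 alternatives each and Cacna1c-Sox5 under 6 (up to 0.116, 0.113 and 0.234). Without control 2, 1 of these 6 pairs fell, and without control 1 or differentiation 2, 3 did. Over all their hub-free partners, 7 of 42 tested Ctnna2 pairs, 4 of 44 Etv6 pairs, 3 of 41 Sox5 pairs, 2 of 33 Foxp1 pairs and 2 of 46 Cacna1c pairs fell. None of them rose by edgeR or DESeq2, and 1 Sox5 pair was higher at an unadjusted p under 0.05. By DESeq2, 2, 2, 1, 1 and 1 fell. Without control 2 these falls came to 3 Ctnna2 pairs, 1 Cacna1c pair and none of Etv6, Sox5 or Foxp1. Without control 1, 1 Sox5 pair and 1 Cacna1c pair fell, without differentiation 1, 5 Foxp1 pairs fell, and without differentiation 2, 3 Ctnna2 pairs, 2 Sox5 pairs, 1 Foxp1 pair and no Cacna1c pair fell. Outside the set, 4 of 18 tested Ptprd pairs and 4 of 30 Me1 pairs fell, with none higher at an unadjusted p under 0.05. By DESeq2, 1 of each fell, and none rose. Without control 2, 1 Ptprd pair fell. Without differentiation 2, no Ptprd pair and 1 Me1 pair fell, and Me1 falls numbered 2 without control 1 and 6 without differentiation 1.

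Further falls, chosen after their values were seen, were Foxp1-Gm20696, Gm21451-Loxl2, Rbpms-Dctn6, Plcb1-Plcb4, Gstm2-Gm12499 and Erbb4-Gm16076. Foxp1-Gm20696 fell from 585 and 704 to 351 and 228 CPM (log2 change -1.16, SE 0.23, adjusted p = 0.00585), and within-RNA pairs of both partners changed by -1.19 and -1.12. Gm21451-Loxl2, with a matrix cross-linking oxidase 131.2 kb away, fell from 453 and 563 to 270 and 253 CPM (log2 change -0.96, SE 0.21, adjusted p = 0.0113). Rbpms-Dctn6, an RNA-binding protein and a dynactin subunit 160.5 kb apart, fell from 383 and 224 to 95.2 and 159 CPM (log2 change -1.24, SE 0.29, adjusted p = 0.0172). Plcb1-Plcb4, related phospholipases 183.3 kb apart, fell from 35.4 and 40.2 to 15.6 and 3.83 CPM (log2 change -2.06, SE 0.53, adjusted p = 0.0307). The groups were separate in all 4. Foxp1-Gm20696, Gm21451-Loxl2 and Plcb1-Plcb4 lost their calls without control 2 and Rbpms-Dctn6 without control 1 (adjusted p up to 0.0797, 0.241, 0.208 and 0.223). Gstm2-Gm12499, with a glutathione transferase, and Erbb4-Gm16076, with a receptor tyrosine kinase, fell by 1.86 and 2.65 on the log2 scale (adjusted p = 0.00673 and 0.00535) and kept their calls.

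Both partners had a tested within-RNA pair in 1065 tested hub-free pairs without the 7 most connected RNAs. These held only 25 of the 248 risen pairs and 28 of the 59 fallen ones. Most of those 25 and 28 changed the same way as the contacts inside both partners. Some joined overlapping genes or 2 names of 1 gene, such as Hoxd3-Hoxd4 and Pakap-Akap2. Of 25 that rose, both within-RNA changes were above 0 in 22, and of 28 that fell, both were below 0 in 23. Of 1012 that were not called, both had the pair's sign in 455. The median change of the risen pairs was 1.46 and that of the mean within-RNA change 1.12, and for the fallen pairs -2.25 and -0.98. Across the 1065 pairs Pearson's r was 0.544, which is a description, since pairs share partners, libraries and depth. How much of a pair's change goes with the level of its RNAs was not tested, because RNA levels were not measured here.

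**Figure D5:**
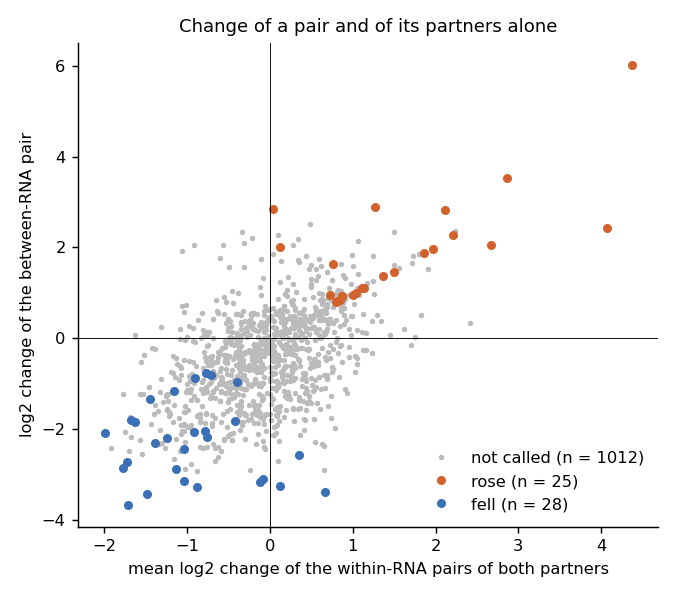
Log2 change of a hub-free pair (y axis) against the mean log2 change of the within-RNA pairs of its partners (x axis), 1 point per pair, 1065 pairs; orange rose, blue fell, grey not called. Most of the 25 risen pairs lie in the upper right and most of the 28 fallen ones in the lower left.

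The genes of the series title had few hub-free contacts. Zhx3, a zinc-finger and homeobox repressor, had 5 and Gm16751 had 2. Zhx3-Gm16751 had 14 and 16 counts in the controls and 27 and 35 with differentiation, and the within-RNA pair of Zhx3 changed by 1.60 on the log2 scale, as the pair itself did (1.61, SE 0.43, adjusted p = 0.0376). That call was lost with column totals, in the fit on hub-free pairs alone, with DESeq2 and without control 1, control 2 or differentiation 1 (adjusted p up to 0.21). Zhx3-Chd6, with a chromatin remodeller 73.99 kb away on the same strand, had 16 and 18 counts in the controls and 1 and 1 with differentiation, a ratio of 11.5 (2.95 to 98.9). It fell (log2 change -3.40, SE 0.82, adjusted p = 0.0216), though not without differentiation 2 (adjusted p up to 0.0955). Gm16751-Chd6 was too sparse to test, with 7 and 4 and 1 and 1 counts and a ratio of control to differentiation of 3.72 (0.813 to 34.6), an interval that includes 1. Zhx3-Shroom3 had 5 and 7 and 1 and 10 counts (adjusted p = 0.843), and Gm12153-Zhx3 5 and 2 and 3 and 2, so their groups overlapped. Gm23935-Zhx3 had 1 and 1 and 5 and 4 counts and a ratio of differentiation to control of 6.65 (1.38 to 63.2).

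Rps3, whose protein is in the small ribosomal subunit, had 58 hub-free pairs of 5 to 80 summed counts. Of 33 tested, none was called by edgeR or by DESeq2, and 1 was higher and 1 lower at an unadjusted p under 0.05. Their log2 changes ran from -1.79 to 1.77, and the lowest adjusted p was 0.0879. Rmrp-Rps3 was at 3.37 and 7.89 and 24.2 and 16.3 CPM, with no overlap between groups and an adjusted p of 0.0879.

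The 7 RNAs that kept more than 500 partners entered many of the pairs. Shroom3, a regulator of cell shape, had 3029 partners, Gm23935 2129, the long noncoding RNA Gm12153 1699, Cdk8 1284, Rmrp 788, Cmss1 624 and Gm20388 591. Together they entered 10125 pairs, 41.5% of all hub-free pairs, which held from 28.8% to 31.8% of the hub-free counts of a library. Of 3716 tested, 36 rose (0.969%) and 10 fell (0.269%), and of the 4531 tested pairs without them 212 rose (4.68%) and 49 fell (1.08%), against 2.85% and 2.4% of all tested pairs. Without control 1 there were 10 rises and 2 falls among the 3716, and without control 2 there were 13 and 3. Without differentiation 1 there were 65 rises, and DESeq2 gave 17 rises and 2 falls. Among the pairs without these RNAs the rises came to 118 and 55 when control 1 or control 2 was left out, to 352 when differentiation 1 was, and to 175 by DESeq2.

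Small RNAs entered 2940 hub-free pairs, 12% of all, and of 1138 tested 22 rose (1.93%) and 8 fell (0.703%), against 2.85% and 2.4% of all tested pairs. Mir692-3-Ftl1, a microRNA gene with the ferritin light chain gene on another chromosome, rose from 20.2 and 19.4 to 92.4 and 116 CPM (log2 change 2.40, SE 0.33, adjusted p = 0.000341). Mir692-3-Gm22133 rose from 16.9 and 15.1 to 88.1 and 104 CPM (log2 change 2.59, SE 0.34, adjusted p = 0.00024). Ncl-Snord13, between nucleolin and a small nucleolar RNA, fell from 51.4 and 47.3 to 18.5 and 4.79 CPM (log2 change -2.18, SE 0.50, adjusted p = 0.0154). The groups were separate in these 3. The pseudogene Gm10116 rose with the same partners as Mir692-3, by 1.99 with Ftl1 and 2.22 with Gm22133 on the log2 scale (adjusted p = 0.0004 and 0.0002). Whether the same reads enter these pairs was not tested. Mir3535-Snord13 and Gm24148-Snord13 fell by 2.16 (adjusted p = 0.0166) with nearly the counts of Ncl-Snord13, and they amount to 1 observation with it. Rps12-Snord14c and Snord100-Snord14c, with the same counts in every library, fell by 2.38 on the log2 scale (adjusted p = 0.0216). Ncl-Snord13 lost its call without differentiation 2 (adjusted p up to 0.0887), and both Snord14c pairs without control 2 and by DESeq2 (up to 0.0988). Without control 1 or without control 2, 8 small RNA pairs rose, and without differentiation 1 there were 43 rises. The 8 falls became 3 without control 2 and 4 without differentiation 2 or by DESeq2.

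Of the lists closest to stem cell state, few pairs could be tested. Self-renewal genes had 30 hub-free pairs, of which 10 were tested and none was called by edgeR or DESeq2, and none had an unadjusted p under 0.05. Itga6-Gm29397, with a laminin receptor that marks these cells, was at 14.3 and 12.2 and 11.4 and 25.9 CPM, and Foxo1-Gm38034, with a transcription factor of stem cell upkeep, at 12.6 and 20.8 and 9.95 and 4.79 CPM (adjusted p = 0.619 and 0.242). The first overlapped between groups and the second did not. Differentiation genes had 1 tested pair, Dmrt1-Shroom3, with the male germ line regulator, at 2.53 and 5.02 and 2.84 and 4.79 CPM (adjusted p = 0.986). Among 141 tested pairs of piRNA and germ cell genes 3 rose (2.13%, against 2.85% of all tested pairs), all with Tex14: the one with mt-Tm above, Tex14-Cdk8 (log2 change 1.15, adjusted p = 0.0145) and Tex14-Gm23935 (1.18, adjusted p = 0.0178). The last 2 lost their calls without control 1, without control 2 and in the fit on hub-free pairs alone (adjusted p up to 0.142 and 0.147).

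Imprinted noncoding RNAs and their hosts had 17 tested pairs with a median log2 change of -1.25. None was called by edgeR or DESeq2, and 5 were lower and none higher at an unadjusted p under 0.05. Meg3-Mir1906-1, an imprinted long noncoding RNA with a microRNA gene that overlaps it, was at 19.4 and 10.8 and 8.53 and 3.83 CPM, and Agpat4-Airn, with the antisense RNA of Igf2r, at 17.7 and 16.5 and 11.4 and 3.83 CPM (adjusted p = 0.245 and 0.244). The differentiation libraries lay below the controls in both. Without control 1, 1 imprinted pair fell. Other long noncoding RNAs had 151 tested pairs with none called by edgeR or DESeq2 and 10 higher and 10 lower at an unadjusted p under 0.05; without differentiation 1, 5 rose and 1 fell. Mitochondrial genes had 54 tested pairs and 2 rises (3.7%, against 2.85% of all tested pairs), Tex14-mt-Tm and Rnu3b3-mt-Tm (log2 change 2.43, SE 0.61, adjusted p = 0.0256). Rnu3b3-mt-Tm lost its call without control 1, control 2 or differentiation 1 and in the fit on hub-free pairs alone (adjusted p up to 0.0989). Mitochondrial rises numbered 3 without control 1, control 2 or differentiation 2 and 8 without differentiation 1. Matrix genes had 147 tested pairs and 2 rises (1.36%), Gm23935-Thbs1 and Thbs1-Shroom3, with thrombospondin (log2 changes 1.97 and 1.98, adjusted p = 0.0291 and 0.041). Both lost their calls without control 1 and without control 2 and in the fit on hub-free pairs alone (adjusted p up to 0.243 and 0.221). Matrix rises numbered 1 without control 1, where it was neither of these pairs, none without control 2 and 1 without differentiation 1.

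The highest ratios of observed to expected count came from RNAs with hardly any other partner. Acaa1b-Acaa1a, peroxisomal thiolases, Gm8242-Uxt, a pseudogene with a prefoldin-like gene, Myh6-Myh7, cardiac myosin heavy chains 2.666 kb apart, Gm12813-Skint11 and Gm14018-Wdr76 had ratios of 89639, 87915, 86256, 86256 and 84659. In 36 pairs of 50 counts or more, and 159 in all, the partners had no other between-RNA contact, with a hub or without, which alone sets the ratio. Of the 5 named, Gm12813-Skint11 rose (log2 change 2.57, SE 0.66, adjusted p = 0.0305), though not without control 2 or differentiation 1 (adjusted p up to 0.32), and the other 4 did not pass (adjusted p from 0.357 to 0.958).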

How the data were processed

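RIC-seq was run on 4 libraries of mouse spermatogonial stem cells, 2 control and 2 differentiation. The authors deposited 1 whole-number count of chimeric reads per RNA pair and library, with no normalization. STAR and build GRCm38 are named, without version or role, per the submitters' processing notes. How duplicates were handled is not stated there. The extraction protocol describes strand-specific libraries, per the labels' protocols, but whether strand was used in counting is not stated, so overlapping, antisense and near-identical genes have uncertain values.

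All pairs of the table were fitted with edgeR 4.0.16 (R 4.3.3; TMM scaling, filterByExpr with minimum count 5 and total 10, quasi-likelihood F test, two-sided), checked on simulated data, and p-values were adjusted by Benjamini-Hochberg over 31688 tested pairs. Calls are adjusted p under 0.05. The biological coefficient of variation was 24.94%. The hub-free pairs were then read from that fit. Levels are edgeR's CPM. Ratios that rest on 3 or fewer counts have exact 95% intervals, which cover counting error only, since no molecular identifiers were used.

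RNA names were matched to RefSeq genes of GRCm38.p6 (6727 by symbol, 294 by synonym, 560 not matched). Coordinates count from 1. Genes up to 100 kb apart are neighbours. Relatives are counted by a shared symbol root. Pairs of 1 gene family without such a root, such as H2-D1-H2-Q4 and Hist1h2bl-Hist1h2ba, are called related but are not in those counts. Pseudogenes are so classed in that table.

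The members, gene lists and rule for named pairs were chosen with earlier results of these data known. The rule named the 15 strongest pairs, the 10 largest rises and falls among called pairs without overlap, 3 per position class, 5 of highest observed over expected count, up to 3 called pairs per gene list (or 2 tested), all pairs of Zhx3, Gm16751 and Rps3 (the last given mostly as a range), and the 5 RNAs with most partners. The other related, fallen and same-count pairs, the pairs of pseudogenes and the set from chromosome 6 were picked with their values in view. A few pairs that the rule names are not reported here.

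The alternatives tried were RLE scaling (DESeq2-type size factors), column totals, a fit on hub-free pairs alone, no filter, a stricter filter (10 and 15), replicate number as a block, DESeq2 1.42.0, adjusted p under 0.1, 1 of each same-count set and leaving out each library with the tested pairs kept. Added after seeing the data were leaving out the 7 most connected RNAs and redrawing the filter on 3 libraries. The 14 alternatives under which the calls of single pairs are followed do not include the redrawn filter.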

Additional observations from a re-analysis of the deposited data

How the results depend on the processing

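Leaving out 1 library in turn, with the same pairs tested and the lone library of its group assumed to vary like the other group, gave 68 to 417 rises and 24 to 94 falls among hub-free pairs (248 and 59 with all 4). When the low-count filter was instead redrawn on the 3 remaining libraries, an alternative added after seeing the data, no pair rose or fell without control 2 (0 and 0), and there were 111 rises without control 1, 418 rises without differentiation 1 and 29 falls without differentiation 2. By class the rises ran from 2 to 7 for overlapping genes, 5 to 33 for neighbours, 13 to 42 for farther pairs on 1 chromosome, 28 to 250 across chromosomes and 20 to 101 for unplaced pairs. The falls ran from 1 to 3, 2 to 12, 6 to 38, 9 to 24 and 6 to 17. Pseudogene pairs gave 20 to 188 rises and up to 1 fall (0 to 1). The fit on hub-free pairs alone gave 67 rises, 36 falls and 27 pseudogene rises, and a median change of 0.0234. Column totals gave a median of 0.0515, 2 rises of overlapping genes and 89 across chromosomes, 9 falls of neighbours, 32 across chromosomes and 15 unplaced, and 1 pseudogene fall. The stricter filter also gave 1 pseudogene fall. DESeq2 gave 28 falls. At an adjusted p under 0.1 there were 504 rises and 153 falls, and 184 pseudogene rises and 1 fall. The cause of these shifts was not tested.

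Replicate numbers are shared between the groups, and the deviations of same-numbered libraries from their group means correlated at 0.022. With counts this sparse, such a correlation cannot show whether same-numbered libraries were prepared together, and no conclusion is drawn from it. With the replicate number as a block, 382 pairs rose and 109 fell. Gaps of up to 10 kb and 1000 kb made 114 and 1540 pairs neighbours in place of 678. The difference in the hub-free share of counts was 2.5 percentage points over all pairs and 5.81 over between-RNA pairs. Of 79 called named pairs, 29 kept their call under all 14 alternatives in which they were tested and 50 lost it under at least 1. The looser threshold of 0.1 among these alternatives cannot undo a call, so it is no check on the pairs. The pairs whose sign turned were not called: Hspa1b-Hspa1a (-0.49), Itga6-Gm29397 (-0.22), Gm8242-Uxt (-0.13) and Zhx3-Shroom3 (-1.63) without differentiation 2, and Acaa1b-Acaa1a (0.15) without control 2 and also without differentiation 1 (0.17). Gm14018-Wdr76 turned with column totals (-0.050), in the fit on hub-free pairs alone (-0.062), without control 1 (-0.11) and without differentiation 2 (-0.74), and Dmrt1-Shroom3 with column totals (-0.093), no filter (-0.014), without control 1 (-0.33) and without differentiation 2 (-0.42). Over single left-out libraries these pairs reached at the other end 0.677 (Hspa1b-Hspa1a), 0.963 (Itga6-Gm29397), 1.17 (Gm8242-Uxt), 1.03 (Zhx3-Shroom3), -0.48 (Acaa1b-Acaa1a), 0.526 (Gm14018-Wdr76) and 0.63 (Dmrt1-Shroom3). The planned grouping by protein identity was not run, because protein sequences were not used here. A median summed count of 13 limits the pairs that can be tested at all.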

Other observations

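Among hub-free pairs not named above, a few more adjoining genes rose. Cdan1-Ttbk2, a gene of red cell maturation and a kinase of ciliogenesis, had 143 and 133 counts in the controls and 171 and 234 with differentiation (log2 change 1.11, SE 0.24, edgeR adjusted p = 0.0109). Cpt1b-Chkb, a carnitine palmitoyltransferase and a choline kinase, had 64 and 48 counts against 96 in both differentiation libraries (1.36, SE 0.32, adjusted p = 0.0176). Snx14-Syncrip, an endosome gene and an RNA-binding protein gene, had 5 and 12 against 13 and 35 (2.01, SE 0.55, adjusted p = 0.0397). Scaled to library size, both differentiation libraries were above both controls in all 3. In the other direction, Hoxd3-Gm28230 had 205 and 241 counts in the controls and 38 and 47 with differentiation (-1.81, adjusted p = 0.0007), next to the fall of Hoxd3-Hoxd4. These pairs were chosen after their values were seen, and they were not rerun under the alternatives.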
